A study of Mus musculus with 4 samples.

Results

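The genes described here are 10 genes of nucleoside uptake and salvage, chosen by symbol from the 51509 genes of the deposited table: the concentrative transporters Slc28a1, Slc28a2 and Slc28a3, the equilibrative transporters Slc29a1, Slc29a2 and Slc29a3, and the enzyme genes Ada, Pnp, Cda and Upp1. All 10 had enough counts to be tested. They were measured by RNA sequencing in intestinal organoids, epithelial cultures from the gut of C57BL/6 wild-type mice (8 to 12 weeks old), collected 36 hours after 8 Gy of irradiation. One group of 2 libraries had been given vehicle and the other group of 2 SGC-CBP30, a small molecule that binds the bromodomains of the acetyltransferases CBP and p300. Both groups were irradiated, no unirradiated group was analysed here, and the sources used here give neither the dose and start of SGC-CBP30 nor the segment of gut. SGC-CBP30 replicate 2 carries the name SGC-CBP31 in its treatment label and was placed by its title. Nothing in the labels says that replicates are separate cultures or animals, and the p-values then capture just the scatter among these 4 libraries, possibly technical.

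Nucleosides, a base joined to a sugar, reach the gut lumen from digested nucleic acids and do not cross membranes unaided. The Slc28 proteins use the sodium gradient to take them up against their own gradient: the Slc28a1 product CNT1 prefers pyrimidine nucleosides, the Slc28a2 product CNT2 prefers purine nucleosides, and the Slc28a3 product CNT3 takes both. Slc29 proteins let nucleosides move down their gradient in either direction. Inside the cell, nucleosides are either rebuilt into nucleotides, which is called salvage, or deaminated and split into base and sugar.

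The libraries held 16433117 to 18087250 counts, and 3 counts, taken as the floor, equalled 0.166 to 0.183 CPM per library (CPM being counts per 1000000 counts). The floor was taken from these library totals, and the other CPM values use scaled library sizes (TMM). Epithelial markers were abundant: the 10 of them summed to 6987 to 7082 CPM in vehicle and 8275 to 8937 CPM in SGC-CBP30 libraries. Markers of other tissues were near the floor or low. The 10 leukocyte markers summed to 2.00 to 3.22 CPM in vehicle and 1.64 to 1.76 CPM in SGC-CBP30 libraries, with Cd3g at 0 throughout. The 10 endothelial markers summed to 4.02 to 4.26 and 3.36 to 3.82 CPM, with Cldn5 at 0. For the 10 fibroblast markers, with Lum and Thy1 at 0, the sums were 16.9 to 17.8 and 11.2 to 13.97 CPM, most of it from Vim.

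The 3 Slc28 genes did not move together, and their start regions are shown because these sister genes changed in opposite directions. Each is the 300-base window from 250 bases before to 50 bases after a RefSeq start site, on GRCm38.p6, written along the gene's strand. Slc28a1 lies at chr7:81114549-81114848 (plus strand), Slc28a2 at chr2:122426185-122426484 (plus strand) and Slc28a3 at chr13:58610828-58611127 (minus strand). Capitals mark matches to the motifs named after the sequences.
Slc28a1: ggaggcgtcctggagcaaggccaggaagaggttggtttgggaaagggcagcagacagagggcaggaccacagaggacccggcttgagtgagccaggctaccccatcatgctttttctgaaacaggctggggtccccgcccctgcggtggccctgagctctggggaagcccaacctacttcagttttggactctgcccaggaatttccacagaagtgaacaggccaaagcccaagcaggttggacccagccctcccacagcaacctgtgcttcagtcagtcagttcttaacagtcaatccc
Slc28a2: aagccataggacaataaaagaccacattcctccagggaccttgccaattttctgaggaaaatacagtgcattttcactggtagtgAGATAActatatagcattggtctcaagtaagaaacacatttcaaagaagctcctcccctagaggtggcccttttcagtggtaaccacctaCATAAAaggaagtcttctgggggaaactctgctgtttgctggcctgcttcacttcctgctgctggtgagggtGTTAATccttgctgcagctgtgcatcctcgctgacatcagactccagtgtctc
Slc28a3: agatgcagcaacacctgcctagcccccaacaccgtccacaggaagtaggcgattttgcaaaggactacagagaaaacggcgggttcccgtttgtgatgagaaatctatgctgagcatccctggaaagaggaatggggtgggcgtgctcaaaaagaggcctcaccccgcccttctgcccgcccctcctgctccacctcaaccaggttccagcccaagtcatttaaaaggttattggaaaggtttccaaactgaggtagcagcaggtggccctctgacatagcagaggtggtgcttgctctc
Both strands were searched for 6 short motifs of gut or general factors. Of all 32851 windows in the table, 4.44% held the HNF4 core, whose letters are CAAAGTC. The HNF1 site, spelled GTTAAT, was in 7.10% of windows. The core bound by CDX factors, spelled TTTATG, was in 11.9%, and AGATAA, which GATA factors bind, in 11.2%. The letters TATAAA, for the TATA box, were found in 13.6%, and TGACG, for the cyclic AMP response site, in 20.8%. Read on the opposite strand, the CDX letters resemble those of the TATA box, so matches to these motifs can overlap. Slc28a2 held 3 matches: AGATAA beginning at base -165, the reverse complement of TTTATG beginning at -75, and GTTAAT beginning at -3, where the start site is base 1 and there is no base 0. The windows of Slc28a1 and Slc28a3 held none of these letters. Among the other members Slc29a1 had matches in 3 of its 8 windows, so that 8 of the 10 members had no match in any window. Members differ in their number of windows, and the share of all windows without any of the 6 motifs was not counted. Nothing is therefore read from the 8 of 10 or from the contrast among the Slc28 genes. GC content was 58.7% for Slc28a1, 46.7% for Slc28a2 and 54.7% for Slc28a3, against a median of 52.7% over all windows. A match is a stretch of letters and not a measured binding site.

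Under SGC-CBP30, 6 of the 10 genes fell, 1 rose and 3 missed the threshold at an adjusted p of 0.05 (quasi-likelihood test of edgeR, Benjamini-Hochberg adjustment over all 14684 genes tested). Slc28a1 fell 14.1-fold, Slc28a3 3.20-fold, Cda 1.75-fold and Slc29a1 1.51-fold, and Ada and Pnp fell 1.36-fold and 1.35-fold. Slc28a2 rose 2.17-fold. Over all genes tested, 30.0% were called, 13.6% higher and 16.3% lower, and the median log2 fold change was 0.01. Scaling by library totals moved the split of all called genes from 2004 higher and 2397 lower to 2907 higher and 1924 lower, while the members stayed at 1 higher and 6 lower. The genes were picked by name and not by a cutoff on values, but with the fold changes of this comparison already known, so their count is a description and nothing is read from its share.

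**Figure D1:**
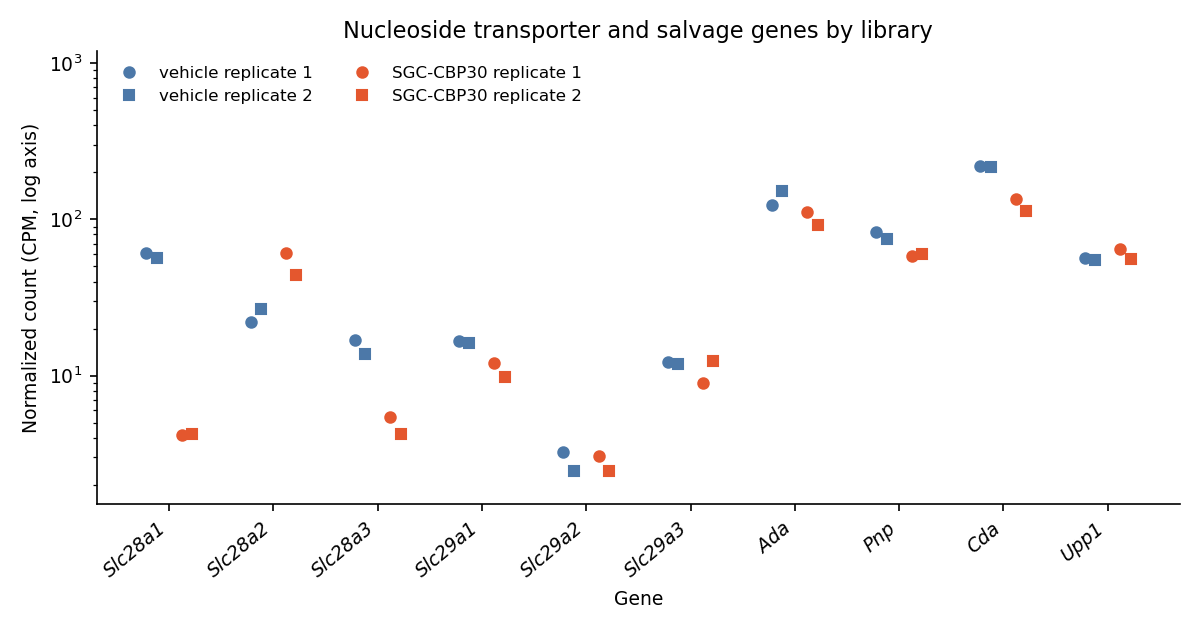
Normalized counts (CPM, log axis) of the 10 genes, 1 point per library, blue for vehicle and red for SGC-CBP30, circles for replicate 1 and squares for replicate 2. The groups lie far apart for Slc28a1, where vehicle libraries were at 61.2 and 56.8 CPM and SGC-CBP30 libraries at 4.17 and 4.21 CPM, and cross over for Slc29a2, Slc29a3 and Upp1.

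Slc28a1, the pyrimidine nucleoside carrier gene, changed most of the 10 (ENSMUSG00000025726, GRCm38 chromosome 7, 81114799 to 81170416, plus strand; this and the spans that follow are whole genes, over whose exons counts were summed). It had 61.2 and 56.8 CPM in the vehicle libraries and 4.17 and 4.21 CPM in the SGC-CBP30 libraries, from raw counts of 1083 and 908 against 71 and 74. Both vehicle libraries were high, both SGC-CBP30 libraries were low, and replicates differed far less than groups. The log2 fold change was -3.82 ± 0.13 (SE), with a 95% interval of -4.08 to -3.55 and an adjusted p of 3.4e-17. This was the 23rd lowest log2 fold change of the 14684 genes tested, and 53 genes were at least 8-fold lower. None of the 50-base words of its transcripts occurred in a transcript of another gene.

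Slc28a2, the purine nucleoside carrier gene, went the other way (ENSMUSG00000027219, chromosome 2, 122426477 to 122461137, plus strand). It had 21.9 and 26.7 CPM with vehicle and 61.3 and 44.2 CPM with SGC-CBP30. The groups did not overlap, as was so for 63.1% of all genes tested, and the SGC-CBP30 replicates lay farther apart than the vehicle replicates. Its log2 fold change was 1.12 ± 0.15 (SE; interval 0.79 to 1.44, adjusted p = 1.1e-04). A neighbouring close copy, Gm14085, contains 35.4% of the 50-base words of its transcripts, so reads of the pair may be split or dropped. Gm14085 itself held 1 and 0 counts with vehicle and 8 and 3 with SGC-CBP30, too few to test. With the pair summed, an alternative chosen after seeing the data, the log2 fold change was 1.13.

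Slc28a3, the gene of the carrier with broad preference (ENSMUSG00000021553, chromosome 13, 58545399 to 58610877, minus strand), was at 16.96 and 13.8 CPM with vehicle and at 5.40 and 4.21 CPM with SGC-CBP30. Every SGC-CBP30 value was below every vehicle value, and groups without overlap were found for 63.1% of all genes tested. Its log2 fold change was -1.68 ± 0.18 (SE; interval -2.06 to -1.30, adjusted p = 9.2e-08). An antisense pseudogene, Gm3131, covers 2.999% of its exonic bases.

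Because the 3 sister genes differ in length, their levels were also compared as CPM per kilobase of gene length. Slc28a1 made up 73.8% and 70.4% of the summed Slc28 level in the vehicle libraries and 8.47% and 11.5% in the SGC-CBP30 libraries. Slc28a2 made up 18.5% and 23.2% with vehicle and 87.4% and 84.3% with SGC-CBP30. The leading Slc28 transcript was thus Slc28a1 in both vehicle libraries and Slc28a2 in both SGC-CBP30 libraries. On this per-length scale the log2 ratio of Slc28a1 to Slc28a2 was 1.80 ± 0.28 (SD, n = 2) with vehicle and -3.12 ± 0.34 with SGC-CBP30, a difference well beyond the spread (exact two-sided permutation p = 0.333, the smallest that 2 against 2 libraries allow). The summed Slc28 level per length was 28.1 and 27.4 with vehicle and 16.7 and 12.5 with SGC-CBP30, so the gain in Slc28a2 was smaller than the loss in Slc28a1.

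**Figure D2:**
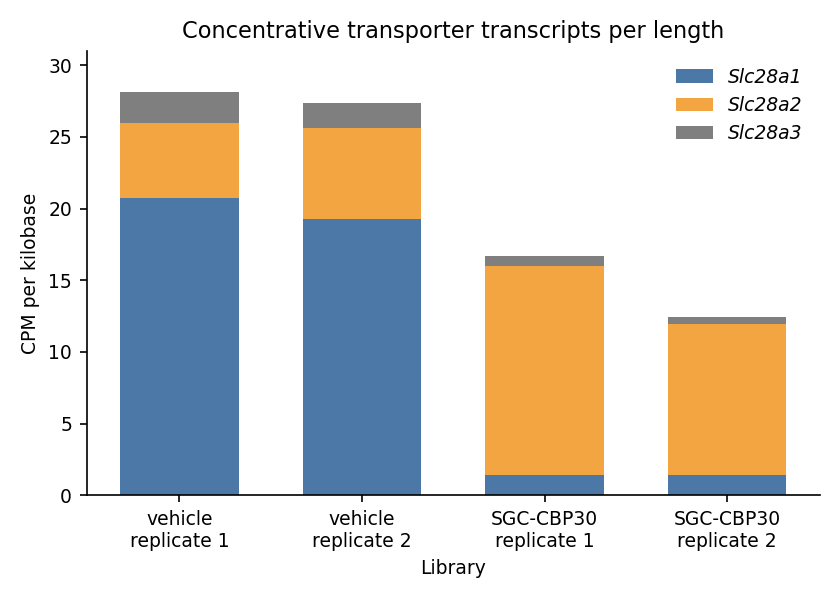
Stacked levels of the 3 Slc28 transcripts in each library, in CPM per kilobase, with 1 bar per library. Slc28a1 (blue) fills most of both vehicle bars, whose totals are 28.1 and 27.4, and Slc28a2 (orange) fills most of both SGC-CBP30 bars, whose totals are 16.7 and 12.5.

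Of the equilibrative transporter genes, Slc29a1, which encodes the plasma membrane carrier ENT1, fell (ENSMUSG00000023942, chromosome 17, 45585200 to 45599606, minus strand). It had 16.7 and 16.1 CPM with vehicle and 12.1 and 9.73 CPM with SGC-CBP30, without overlap, as was so for 63.1% of all genes tested. The log2 fold change was -0.59 ± 0.15 (SE; interval -0.89 to -0.29, adjusted p = 0.0034). An antisense gene, Gm17080, shares 6.86% of its exonic bases, and without strand its reads cannot be told apart. Slc29a2 is the ENT2 gene (ENSMUSG00000024891, chromosome 19, 5024006 to 5031971, plus strand). It had the lowest CPM of the members, not corrected for length, at 3.22 and 2.44 with vehicle and 3.05 and 2.45 with SGC-CBP30. Those groups overlapped, and the log2 fold change of -0.05 had an interval of -0.69 to 0.59, which spans a change of 1.5-fold either way (adjusted p = 0.93). Slc29a3, the ENT3 gene of lysosomes (ENSMUSG00000020100, chromosome 10, 60712072 to 60752794, minus strand), had 12.2 and 11.9 CPM with vehicle and 8.98 and 12.3 CPM with SGC-CBP30. Here too the groups overlapped (log2 fold change -0.18, interval -0.52 to 0.17, adjusted p = 0.47). The signs of Slc29a2 and Slc29a3 turned with 1 library left out.

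Set against each other per length, the Slc28 sum was 3.71 and 3.89 times the Slc29 sum in the vehicle libraries and 2.88 and 2.25 times in the SGC-CBP30 libraries. The mean ratio was 3.80 ± 0.12 (SD, n = 2) with vehicle and 2.57 ± 0.44 with SGC-CBP30, without overlap (exact two-sided permutation p = 0.333, again the smallest possible).

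Among the enzyme genes, Cda fell most (ENSMUSG00000028755, chromosome 4, 138338424 to 138367992, minus strand). It encodes cytidine deaminase, which turns cytidine into uridine. Vehicle libraries held 220 and 216 CPM and SGC-CBP30 libraries 136 and 113 CPM, with a log2 fold change of -0.81 ± 0.07 (SE; interval -0.96 to -0.66, adjusted p = 4.3e-09). Ada encodes adenosine deaminase, which turns adenosine into inosine (ENSMUSG00000017697, chromosome 2, 163726584 to 163750239, minus strand). It had 124 and 153 CPM with vehicle and 111 and 91.7 CPM with SGC-CBP30, so the groups did not overlap but lay close. Groups without overlap were found for 63.1% of all genes tested. Its log2 fold change of -0.45 ± 0.11 (SE; interval -0.68 to -0.21, adjusted p = 0.0091) was called, and without vehicle replicate 2 it was -0.28 and not past the threshold (adjusted p = 0.064).

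Pnp encodes purine nucleoside phosphorylase, which splits inosine and guanosine into base and ribose phosphate (ENSMUSG00000115338, chromosome 14, 50931082 to 50965237, plus strand). With vehicle it had 83.2 and 75.4 CPM and with SGC-CBP30 57.9 and 59.8 CPM, all lower. Groups without overlap, as here, were seen for 63.1% of all genes tested. The log2 fold change was -0.43 ± 0.08 (SE; interval -0.59 to -0.27, adjusted p = 1.6e-04). Its span contains Pnp2, a close copy, and 22.05% of the 50-base words of Pnp transcripts occur in those of other genes, chiefly Gm49342 and Pnp2. Pnp2 fell as well (log2 fold change -0.56 ± 0.08, adjusted p = 5.5e-06), and summing both gave -0.50. Upp1 encodes uridine phosphorylase, which splits uridine (ENSMUSG00000020407, chromosome 11, 9118103 to 9136170, plus strand). It had 56.8 and 55.3 CPM with vehicle and 64.3 and 55.7 CPM with SGC-CBP30, with overlapping groups (log2 fold change 0.10, interval -0.08 to 0.27, adjusted p = 0.43). Upp1 was thus the 1 enzyme gene of the 4 that was not called, and its interval excludes a change as large as that of Cda.

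**Figure D3:**
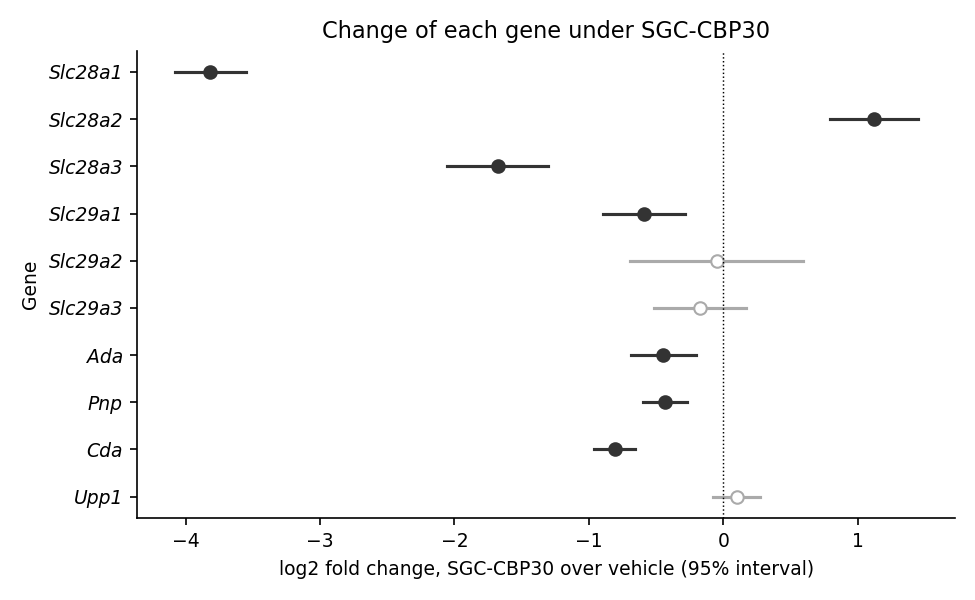
Change of each gene (point) on the log2 scale, SGC-CBP30 over vehicle, with its 95% interval (line), filled where the adjusted p is under 0.05 and open otherwise. Slc28a1 at -3.82 and Slc28a3 at -1.68 lie to the left, Slc28a2 at 1.12 to the right, and the intervals of Slc29a2, Slc29a3 and Upp1 cross 0.

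Per length, 3 of the enzyme genes, Cda, Ada and Upp1, were the most abundant of the 10 in either group. With vehicle, Cda stood at 211 ± 2.96 CPM per kilobase (SD, n = 2), Ada at 69.0 ± 10.2 and Upp1 at 28.6 ± 0.545. Slc28a1 at 20.01 ± 1.06 and Pnp at 19.9 ± 1.39 did not differ beyond their spread. Below them came Slc28a2 at 5.78 ± 0.804 and Slc29a1 at 4.10 ± 0.115, then Slc29a3 at 2.07 ± 0.0392 and Slc28a3 at 1.95 ± 0.286, which overlapped, and Slc29a2 at 1.15 ± 0.224. For comparison, the median tested gene was at 4.49. With SGC-CBP30 the order began in the same way, with Cda at 120 ± 15.4, Ada at 50.7 ± 6.84 and Upp1 at 30.6 ± 3.12. Pnp at 14.8 ± 0.337 and Slc28a2 at 12.5 ± 2.88 followed and overlapped. Slc28a1 went from the 4th to the 8th place, at 1.42 ± 0.00985, between Slc29a3 at 1.83 ± 0.407 and Slc29a2 at 1.11 ± 0.174. Slc28a3 was last at 0.608 ± 0.107, and Slc29a1 stood at 2.72 ± 0.417.

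Concentrative transporters of the gut are known to act in mature absorptive cells, and more markers of these cells fell than rose. Among the 20 markers of enterocytes, 12 were called lower, 2 higher and 6 missed the threshold. The 3 lower ones of smallest p were Treh, Enpep and Anpep, with log2 fold changes of -1.21, -1.06 and -1.03. The 2 higher ones were Apoa4 and Krt20, each at 0.43. Over all genes tested, 16.3% were called lower and 13.6% higher. The median log2 fold change of the 20 was -0.35. Their sums were 57046 to 57258 CPM with vehicle and 43698 to 45395 CPM with SGC-CBP30. No enterocyte marker was at 0. Their part in the changes of the transporter and enzyme genes was not tested, and in bulk RNA fewer cells of a type and less RNA per cell cannot be told apart. For the 10 goblet cell markers, of which 5 fell and 1 rose, the sums were 4492 to 4627 and 4621 to 4657 CPM. The 10 Paneth cell markers, of which 4 fell and 0 rose, summed to 4253 to 4350 and 3433 to 3774 CPM. Of 10 crypt base stem cell markers 3 fell and 2 rose, with sums of 799 to 824 and 651 to 731 CPM.

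Other enzymes deaminate nucleosides, nucleotides or bases and break the bases down. The list of 16 tested deaminases and base breakdown enzymes outside the members also counts Samhd1 and Upp2. Of these 16, 9 fell, 1 rose and 6 missed the threshold, with a median log2 fold change of -0.49. Over all genes tested, 16.3% were called lower and 13.6% higher, which is the comparison for the lists below as well. Gda, whose product deaminates guanine, fell from 896 ± 39.95 to 434 ± 5.64 CPM (SD, n = 2), a log2 fold change of -1.05 ± 0.06 (SE). Samhd1, which encodes a hydrolase of deoxynucleoside triphosphates, fell by 0.91 ± 0.07 on the log2 scale. Upb1, the last enzyme gene of pyrimidine base breakdown, fell from 22.9 ± 0.419 to 7.51 ± 0.0775 CPM. Dpyd, which starts that breakdown, Tymp, the thymidine phosphorylase gene, and Xdh, whose product makes uric acid, were named after their values were seen, and fell by 0.72 ± 0.06, 1.12 ± 0.12 and 0.43 ± 0.06 on the log2 scale. Dpys, of the step between Dpyd and Upb1, had 0 counts in all 4 libraries. The 1 gene that rose was Upp2, a relative of Upp1, with 12 and 18 counts against 50 and 29 (log2 fold change 1.35 ± 0.45). The adjusted p was 0.149 in DESeq2, 0.173 with vehicle replicate 1 left out and 0.331 with SGC-CBP30 replicate 1 left out, so the call did not hold there.

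Of 14 salvage kinases and phosphoribosyltransferases, which rebuild nucleotides from nucleosides and bases, 4 fell, 1 rose and 9 missed the threshold (median log2 fold change -0.12). Aprt, which salvages adenine, fell by 0.36 ± 0.07 in log2 units (SE), and Adk, the adenosine kinase gene, by 0.32 ± 0.08, not called with vehicle replicate 2 left out (adjusted p = 0.0835). The thymidine kinase gene Tk1 fell by 0.46 ± 0.12, not called in DESeq2 or with vehicle replicate 1 left out (adjusted p = 0.0596 and 0.057). Hprt, which salvages hypoxanthine and guanine, rose by 0.26 ± 0.07, not called with vehicle replicate 1 or 2 left out (adjusted p = 0.0623 and 0.130).

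Outside the cell, nucleotides must lose their phosphates before nucleosides can be taken up. Of 18 tested nucleotidases and ectonucleotidases 6 fell, 4 rose and 8 missed the threshold (median log2 fold change -0.05). Enpp3 fell by 0.66 ± 0.09 (SE) on the log2 scale and Entpd8 by 0.47 ± 0.07, both genes of surface enzymes that cut nucleotides. The mitochondrial nucleotidase gene Nt5m fell by 0.51 ± 0.14, not called in DESeq2 or with replicate 1 of vehicle or of SGC-CBP30 left out (adjusted p = 0.0796, 0.0595 and 0.0907). Akp3, an intestinal alkaline phosphatase gene, rose from 1119 ± 105 to 2766 ± 170.2 CPM (SD, n = 2), a log2 fold change of 1.31 ± 0.07. Alpi, another alkaline phosphatase gene of the list, was named after its values were seen. It stood at 2622 CPM with vehicle and 2798 CPM with SGC-CBP30 and was not called (log2 fold change 0.09 ± 0.06). The cytosolic nucleotidase gene Nt5c rose by 0.49 ± 0.09, and Nt5c1a, at 0.797 CPM with vehicle and 2.31 CPM with SGC-CBP30, by 1.52 ± 0.43, not called in DESeq2 or with replicate 2 of vehicle or of SGC-CBP30 left out (adjusted p = 0.0774, 0.0648 and 0.0506).

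Other carriers of nucleobases and nucleotides were split. Of 7 tested, 3 fell, 1 rose and 3 missed the threshold (median log2 fold change 0.06). Slc23a4, which encodes a sodium-coupled nucleobase carrier, fell from 5.74 ± 0.597 to 2.57 ± 0.180 CPM (SD, n = 2; log2 fold change -1.16 ± 0.26, SE). Slc25a36, a mitochondrial pyrimidine nucleotide carrier gene, fell by 0.37 ± 0.06, and Abcc5, an exporter gene, rose by 0.42 ± 0.08. The exporter gene Abcc4 fell by 0.38 ± 0.14, not called in DESeq2, by library totals or with no filter (adjusted p = 0.224, 0.104 and 0.0502), nor with vehicle replicate 2 or SGC-CBP30 replicate 1 left out (adjusted p = 0.504 and 0.153).

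New synthesis of nucleotides was represented by 2 lists. Of 13 tested purine synthesis genes 5 fell, 1 rose and 7 missed the threshold (median log2 fold change -0.19). Prps1, which makes the activated ribose that synthesis and base salvage both use, fell by 0.45 ± 0.10 (SE) on the log2 scale, and Impdh1, of the guanine nucleotide branch, rose by 0.76 ± 0.15. Gart fell by 0.36 ± 0.11 and Adss by 0.19 ± 0.06, and neither call held without vehicle replicate 1 (adjusted p = 0.389 and 0.261). DESeq2 did not call Gart (adjusted p = 0.0769), and Adss was not called by library totals or with vehicle replicate 2 left out (adjusted p = 0.140 and 0.201). Of 11 pyrimidine and deoxynucleotide synthesis genes 3 fell, 0 rose and 8 missed the threshold (median log2 fold change -0.16). They included the ribonucleotide reductase genes Rrm1 (-0.48 ± 0.09) and Rrm2 (-0.46 ± 0.09).

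Adenosine outside the cell is also a signal, and 3 of its 4 receptor genes were tested, all at low levels. Adora1 fell from 4.52 ± 0.0717 to 1.65 ± 0.568 CPM (SD, n = 2; log2 fold change -1.45 ± 0.32, SE). Adora2b had 35 and 14 counts with vehicle and 6 and 7 with SGC-CBP30 (log2 fold change -1.92 ± 0.59), not called in DESeq2 or with replicate 1 of vehicle or of SGC-CBP30 left out (adjusted p = 0.117, 0.429 and 0.0612). Adora2a missed the threshold (log2 fold change -0.14 ± 0.44, and 0.51 with vehicle replicate 2 left out).

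**Figure D4:**
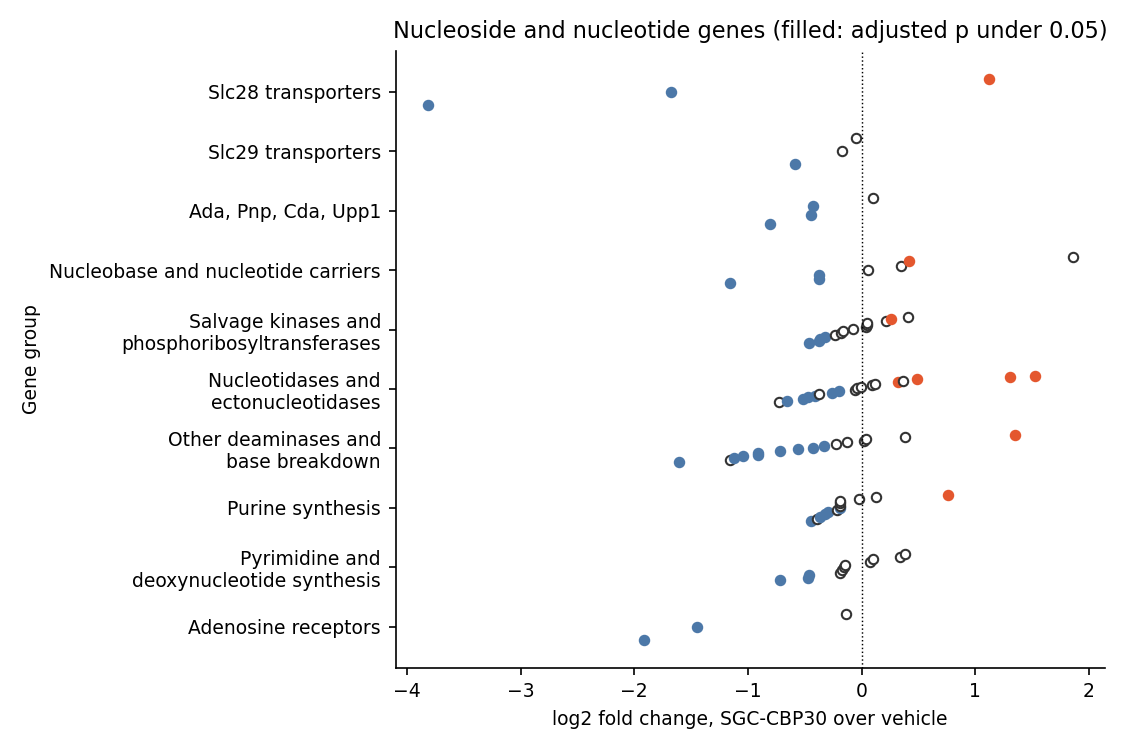
Change of each tested gene (point) on the log2 scale, SGC-CBP30 over vehicle, in 10 gene groups, blue for called lower, red for called higher and open otherwise. In the group of other deaminases and base breakdown enzymes (Samhd1 and Upp2 included) 9 of 16 points are blue. For salvage kinases and phosphoribosyltransferases 4 of 14 are blue, and over all genes tested 16.3% were called lower.

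The authors' deposited table gives the same directions for the 7 called members, with 6 lower and 1 higher under an adjusted p of 0.05. Of the 23932 genes with an adjusted p in the authors' deposited table, 2728 (11.4%) are under that threshold, 4.49% higher and 6.91% lower, a smaller number than the 4401 called here. Since the members were chosen with this contrast known, nothing is read from their share. In the authors' deposited table Slc28a1 has a log2 fold change of -3.82, Slc28a2 1.12 and Slc28a3 -1.68, and Slc29a1, at -0.59, has the adjusted p closest to the threshold among those called (0.0424).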

How the data were processed

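RNA sequencing counts of 4 libraries (2 vehicle, 2 SGC-CBP30) came from 1 table, held in part, whose last line is cut short among genes without counts. Per the file headers, the authors deposited whole-number counts per gene and library, not normalized, FPKM per library, the gene length, group means as a signal of normalized counts, and a log2 fold change with p-value and adjusted p-value from an unnamed test. Per the submitters' processing notes, featureCounts 1.5.0-p3, HISAT2 2.0.5 and StringTie 1.3.3b were used, with no roles given, and the build was mm9. Coordinates in the table are those of GRCm38: 98.5% of 51487 gene IDs shared with GENCODE M21 had identical ones, as had 9 of the 10 members, Slc29a2 being the exception. The sources used here do not give strand use or the handling of reads with several matches.

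Counts entered the robust quasi-likelihood F test of edgeR 4.0.16 under R 4.3.3, after filterByExpr and with TMM factors, no covariate, Benjamini-Hochberg adjustment over 14684 genes, threshold 0.05. SE is the absolute log2 fold change over root F. CPM use TMM library sizes, except the floors, which use library totals. Replicates differed by more than counting noise (chi-square per degree of freedom 3.07 and 6.76). Floors cover counting error only. Alternatives were DESeq2 1.42.0, other scalings and filters, each library left out, a replicate block, and close copies summed. FPKM served to recheck the levels per length. Promoter windows are RefSeq's (GRCm38.p6); shared 50-base words were counted in GENCODE M21 transcripts.

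Members and lists were chosen with earlier results of these data known. Named are all members and their close copies, up to 3 called genes of smallest p per list and direction, called neighbours of called members, and the 3 genes (mean log2 CPM 3 or more) nearest to the most changed member; others are said to be named after their values were seen. Some genes of the lists are not reported here by name.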

Additional observations from a re-analysis of the deposited data

How the results depend on the processing

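Of the 10 genes, Slc28a1, Slc28a2, Slc28a3, Slc29a1, Pnp and Cda kept their direction and call under all 11 alternatives, with log2 fold changes of -3.86 to -3.74, 0.86 to 1.34, -1.87 to -1.51, -0.76 to -0.44, -0.50 to -0.36 and -0.95 to -0.68. Ada lost its call without vehicle replicate 2 (-0.28) and ranged from -0.59 to -0.28. Among the genes not called, Slc29a2 turned to 0.024 with library totals as the scale and ranged from -0.23 to 0.17 with 1 library left out, above 0 without vehicle replicate 1 (0.17) or SGC-CBP30 replicate 2 (0.10). Without SGC-CBP30 replicate 1, Slc29a3 was at 0.030 and Upp1 at -0.012. Adora2a reached 0.51 without vehicle replicate 2 and -0.60 without vehicle replicate 1. Left-out ranges were -0.42 to 0.030 for Slc29a3 and -0.012 to 0.20 for Upp1. The causes were not tested.

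Over all genes, 2004 were called higher, against 1070 in DESeq2, 1235 to 2104 with 1 library left out (1236 without vehicle replicate 1, 1235 without vehicle replicate 2). In DESeq2 the counts fell to 2 lower for salvage kinases and phosphoribosyltransferases, 2 higher and 3 lower for nucleotidases, 0 higher for base breakdown enzymes, 2 lower for purine synthesis and 1 lower for adenosine receptors. Library totals gave 2 higher for salvage kinases, 2 higher for base breakdown and 2 lower for purine synthesis. Asking for 50 counts in 2 libraries, which leaves fewer genes tested, gave 0 higher for base breakdown and 1 lower for adenosine receptors. With 1 library left out, counts ranged from 0 to 2 higher and 2 to 4 lower for salvage kinases, 2 to 4 higher and 3 to 6 lower for nucleotidases, 0 to 1 higher for base breakdown, 2 to 6 lower for purine synthesis and 1 to 2 lower for adenosine receptors. When 1 library is left out, the lone library of its group is assumed to vary like the other group.

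Replicate numbers gave no sign of pairing the libraries: the correlation of deviations from group means between libraries of the same number was -0.024. With 2 libraries per group this single value cannot exclude pairing. With the replicate block 2189 genes were called higher and 2514 lower, and the calls of the 10 members did not change. Depth limits Slc29a2, with 39 to 57 counts per library.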

Other observations

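The 3 genes whose values over the 4 libraries lay nearest to those of Slc28a1, by Euclidean distance of centred log2(CPM + 0.5), were Adh4 (distance 0.159), Rdh16 (0.225) and Lrrc3 (0.292). Adh4 and Rdh16 encode dehydrogenases of alcohols and retinol. Their log2 fold changes were -3.63 ± 0.09, -4.31 ± 0.24 and -3.84 ± 0.20 (SE). With 2 libraries per group, this likeness rests mainly on the size of the fall.

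Of the 20 nearest tested genes on either side of the 10 members, 7 were called lower, 3 higher and 10 were not past the threshold. Over all genes tested, 30.0% were called. The 20 include Pnp2, the close copy that overlaps Pnp and was called lower, and Ndufs6b, which overlaps Slc28a1 and was not called. Beside Slc28a1, Alpk3 had 33 and 31 counts with vehicle and 18 and 7 with SGC-CBP30 (log2 fold change -1.38 ± 0.49, SE). Beside Slc28a2, Bambi-ps1, a pseudogene, had 15 and 18 counts with vehicle and 42 and 43 with SGC-CBP30 (1.31 ± 0.41). Rmi1, which lies 134251 bases from Slc28a3, was at -0.42 ± 0.12. Next to Slc29a1 lie Hsp90ab1 (0.25 ± 0.06) and Mymx, with 15 and 10 counts against 0 and 0. The tested genes nearest to Ada, Pkig at 426 bases and Ywhab at 244721 bases, were at -0.40 ± 0.11 and 0.20 ± 0.06. Mul1, which lies 66679 bases from Cda, was at -0.29 ± 0.08. DESeq2 did not call Alpk3 (adjusted p = 0.188), Bambi-ps1 (0.117), Rmi1 (0.0838), Pkig (0.0683) and Mul1 (0.0521), and gave Mymx no adjusted p. With vehicle replicate 1 left out, Alpk3 (adjusted p = 0.106), Bambi-ps1 (0.111), Pkig (0.175), Ywhab (0.307) and Mul1 (0.0541) were not called. With vehicle replicate 2 left out, this was so for Alpk3 (adjusted p = 0.129), Rmi1 (0.223), Hsp90ab1 (0.0654), Ywhab (0.104) and Mul1 (0.124). Bambi-ps1 was not called with SGC-CBP30 replicate 1 left out (adjusted p = 0.0515), nor Alpk3 (0.277) and Pkig (0.0568) with SGC-CBP30 replicate 2 left out.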
